A study of Saccharomyces cerevisiae with 2 samples.

Results

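The GAL7, GAL10 and GAL1 genes lie side by side on chromosome 2 of Saccharomyces cerevisiae, and their nucleosomes were read from 2 libraries of MNase-seq. Cells had been grown in YPD, a rich medium with glucose as the sugar, and fixed with formaldehyde. Spheroplasts were then treated with micrococcal nuclease (MNase), an enzyme that digests linker DNA more readily than DNA wrapped on histones, and DNA of mononucleosomal size was cut from a gel and sequenced from 1 end. The sample labels give no strain, treatment or genotype, and the study's supplementary material names the laboratory strain BY. Both libraries belong to this single condition and are named replicate 1 and replicate 2, with 21973866 and 19288900 deposited reads. The labels do not say whether the cultures were separate, so an SD over both libraries may be technical, and no comparison between conditions can be made.

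The window runs from 273000 to 282000 of chromosome 2 in the deposited coordinates, for which the submitters' processing notes name the build sacCer2. Gene positions were taken as GAL7 from about 274430 to 275530 on the minus strand, GAL10 from about 276250 to 278350 on the minus strand and GAL1 from about 279020 to 280610 on the plus strand, each uncertain by up to 50 bp. These are coding intervals, so a start below is the start of the coding part and not of the transcript. The window holds 3 GAL genes and 41 called nucleosome positions, of 49453 positions called on the 16 nuclear chromosomes. No minimum height was set, so some calls rest on few reads. In replicates 1 and 2 the position at 281094 had 2 and 1 reads, and that at 274337 had 24 and 9. Both lie in intervals described below as depleted, so a called position is not always an occupied nucleosome. By the order of genes in the RefSeq table, KAP104 lies beyond the end of GAL7 and FUR4 beyond the end of GAL1.

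The products of the cluster turn galactose into glucose 1-phosphate in the Leloir pathway. GAL1 encodes galactokinase, GAL7 encodes the galactose-1-phosphate uridylyltransferase, and GAL10 encodes a protein with epimerase and mutarotase activity. GAL10 and GAL1 are read in opposite directions from a shared promoter, which holds an upstream activating sequence with binding sites for the activator Gal4. Galactose releases Gal4 from its inhibitor Gal80, while glucose represses the genes, in part through the repressor Mig1, and the locus is a classical model for nucleosomes at an inducible promoter. Non-coding transcription antisense to GAL10 is also known in glucose, and the RefSeq table lists an antisense RNA gene, YNCB0008W, that overlaps both GAL10 and GAL1. No sequence was read here, so the place of the Gal4 sites within the profiles was not determined.

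Occupancy is given relative to the mean of chromosome 2 in the same library, with each read lengthened to the distance between the strands (94 bases in replicate 1 and 85 in replicate 2). The coding parts were well occupied, while the intervals before GAL7 and beyond the GAL7 end were low. GAL1 had an occupancy of 1.26 in replicate 1 and 1.31 in replicate 2 (mean 1.28 ± 0.037, SD, n = 2), from 3553 and 3238 reads. GAL10 had 1.21 in each (mean 1.21 ± 0.00130, SD, n = 2), and GAL7 had 1.09 and 1.10 (mean 1.10 ± 0.0104, SD, n = 2). The order GAL1, GAL10, GAL7 was the same in both libraries, and the values of neighbouring genes did not overlap, but no test of these gaps was made. Among all nuclear windows of the same length, the means stood at the percentiles 79.8 for GAL1, 75.3 for GAL10 and 63.5 for GAL7. All 3 coding parts were thus above the nuclear median without being extreme. The promoter of GAL7, the 719 bp between GAL7 and GAL10, had 0.652 and 0.770 (percentile 27.5). The shared GAL10-GAL1 promoter of 669 bp had 0.715 in replicate 1 and 1.35 in replicate 2 (mean 1.03 ± 0.450, SD, n = 2). Replicate 2 was thus 1.89-fold higher there, while in the other 6 parts the ratio of replicate 2 to replicate 1 lay between 0.882 and 1.18. The mean of 1.03 fell to 0.612 with each base and strand counted once and to 0.769 with at most 20 reads per base, and was 1.45 relative to the nuclear median, so it lay above or below the reference depending on these choices.

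**Figure D1:**
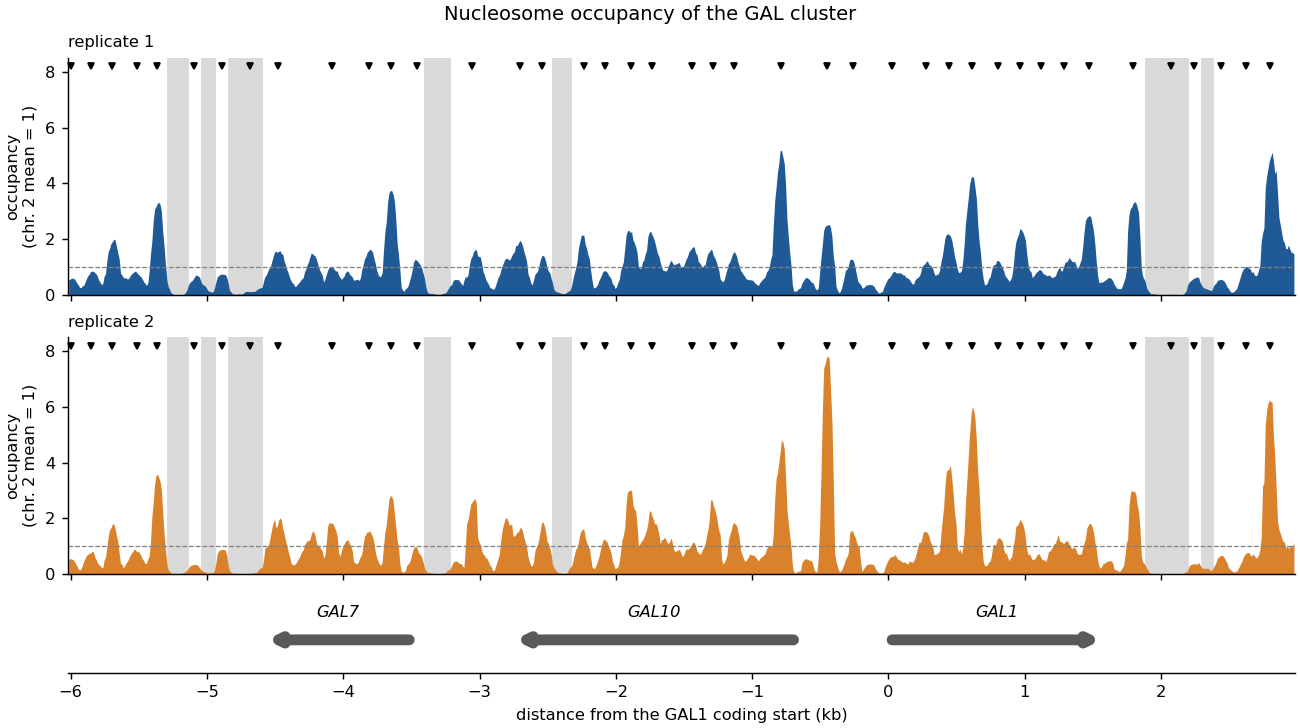
Relative occupancy along the window (chromosome 2 mean = 1) against the distance from the GAL1 coding start in kb, for replicate 1 (blue) and replicate 2 (orange). Triangles mark the 41 called positions, grey bands the 7 depleted intervals and arrows the coding parts; the tallest peak of replicate 2, at 7.82, lies in the GAL10-GAL1 promoter, where replicate 1 stood at 2.49 at the called centre.

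The difference in the mean occupancy of the shared promoter came from a single narrow position. Its centre was called at 278569, which is 451 bp before the GAL1 start and 219 bp before the GAL10 start. Within 73 bp of this centre lay 426 reads of replicate 1 (95% Poisson interval, 387 to 468) and 1041 of replicate 2 (979 to 1106). Per 1000000 nuclear reads of the library (RPM), these were 19.4 in replicate 1 and 54.0 in replicate 2. By this measure replicate 2 was 2.79-fold higher, a value at the percentile 99.7 of all nuclear positions. In replicate 1 these reads were 51.1% of those in the promoter, and in replicate 2 they were 74.8%. With the bases within 73 bp of the position left out, a calculation chosen after the difference had been seen, occupancy of the other 522 bp was 0.458 in replicate 1 and 0.449 in replicate 2 (mean 0.453 ± 0.00653, SD, n = 2). Averaged over these bases, the libraries thus gave nearly the same value, but they differed in both directions at single places. At -225 bp from the GAL1 start, occupancy was 0.492 in replicate 1 and 1.03 in replicate 2. At -315 bp it was 0.884 in replicate 1 and 0.540 in replicate 2. Leaving out the tallest position lowers the mean of any part, and the other 522 bp were not ranked against nuclear windows.

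The position was also short and sharp in both libraries. The footprint, the distance from the median plus-strand 5′ end to the median minus-strand 5′ end, was 70 bp in each, against nuclear medians of 96 bp in replicate 1 and 88 bp in replicate 2. These footprints stood at the nuclear percentiles 4.22 in replicate 1 and 9.58 in replicate 2. Read centres had an SD of 17.0 bp in replicate 1 and 14.2 bp in replicate 2, at the percentiles 0.891 and 1.03 of all nuclear positions. By value alone, neither trait was particular to this position within the window. The position at 276319 in GAL10 had shorter footprints (61 and 66 bp). Its read centres were more spread, however, with SDs of 31.4 bp in replicate 1 and 33.1 bp in replicate 2. The nearest call of replicate 2 lay at an offset of -102 bp from it. The position at 274128 beyond the GAL7 end had similar SDs (16.8 and 14.7 bp) to the promoter position. At the promoter position, the fullest base of each strand was the same in both libraries. Of the plus-strand reads, 87 of 174 in replicate 1 and 250 of 444 in replicate 2 began at base 278536, which is 50.0% and 56.3% (percentiles 99.96 and 99.86 among nuclear positions with at least 100 reads of that strand). On the minus strand the fullest base was 278606 in both libraries, with 77 of 243 reads in replicate 1 (31.7%, percentile 99.1) and 128 of 588 in replicate 2 (21.8%, percentile 83.1). Replicate 2 also had a nearer minus-strand edge, described in a stretch chosen after it was seen. From 278581 to 278600 lay 217 of its 588 minus-strand ends (36.9%), but 31 of 243 in replicate 1 (12.8%). The libraries thus differed in the pattern of minus-strand ends as well as in the number of reads. From base 278536 to base 278606, both counted, is a stretch of 71 bases. Counting reads at the same base only once lowered the height of the position from 7.16 to 1.81 times the mean and the difference between the libraries from 2.79-fold to 1.24-fold. With at most 20 reads per base and strand, the height was 4.10. The reads at base 278536 also enter the footprint and the SD of read centres, which were not recalculated under either limit. Moving read ends by 73 bp instead gave a height of 3.17. The part of copies of the same fragment in these reads was not tested.

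**Figure D2:**
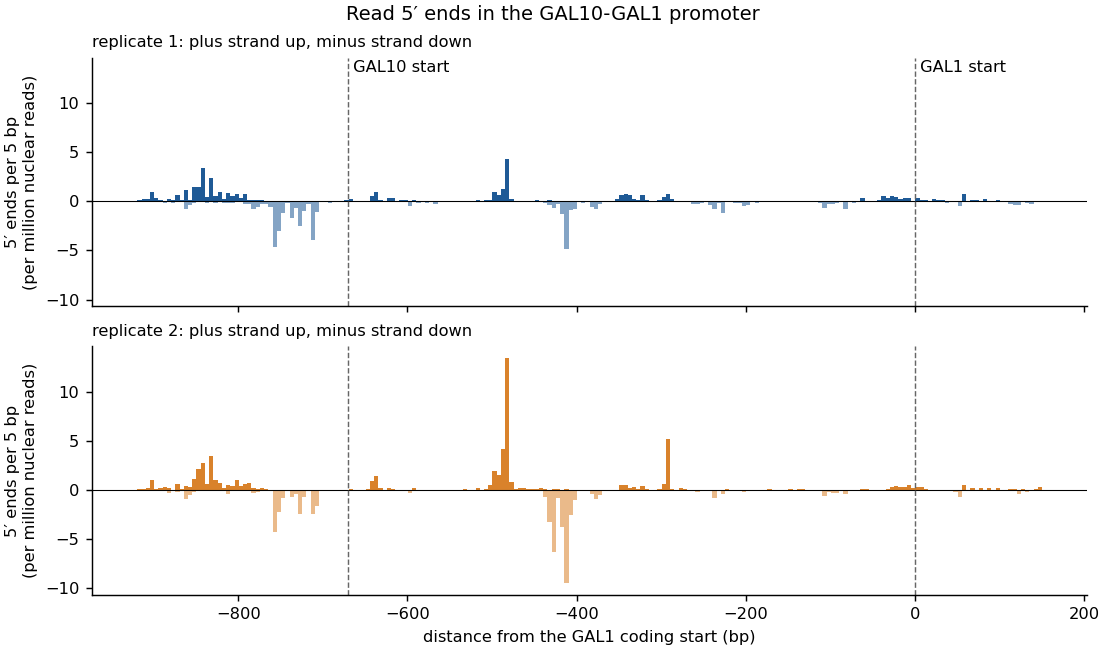
Read 5′ ends per 5 bp, in RPM, against the distance from the GAL1 coding start in bp; plus-strand ends point up and minus-strand ends down, for replicate 1 (blue) and replicate 2 (orange). In both libraries the fullest plus-strand and minus-strand bases bound a stretch of 71 bases, both counted, between the GAL10 and GAL1 starts. Replicate 2 has a further minus-strand edge nearer the centre (217 ends, against 31 in replicate 1), with far fewer ends toward the GAL1 start.

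On the GAL1 side of the shared promoter the profile was lower. A position was called at 278757, 263 bp before the GAL1 start, with 215 and 208 reads and a height of 1.55 (percentile 40.2). Its centre was less well shared, since the nearest calls of replicates 1 and 2 lay at offsets of -19 and 9 bp from it, and its footprint was 105 bp in replicate 1 but 53 bp in replicate 2. Toward GAL1, a run of 73 bp from 278917 to 278989 stayed below 0.25 of the mean (0.139 in replicate 1 and 0.0853 in replicate 2), ending 31 bp before the GAL1 start. On the GAL10 side, a run of 66 bp from 278314 to 278379 crossed the GAL10 start itself, with 0.184 and 0.0932. A depleted interval was defined as at least 80 bp below 0.25, so neither run counted as depleted, and the shared promoter held no such interval. In all, 191 of its 669 bp lay below 0.25. That number was 71 when each base and strand was counted once and 109 with reads widened to 147 bp. With an exclusion zone of 120 bp in place of 147 bp, further low positions were called in the promoter at 278427, 77 bp before the GAL10 start (height 0.725), and at 278880, 140 bp before the GAL1 start (height 0.514). Their heights were low, at the percentiles 14.6 and 9.26 of nuclear positions.

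The promoter of GAL7 differed in the length of its low runs, with 1 near the gene long enough to count as a depleted interval. The share of low bases was alike. In the GAL7 promoter 209 of 719 bp lay below 0.25 (29.1%), against 28.6% of the shared promoter. From 275622 to 275802 (181 bp, from 92 to 272 bp before the GAL7 start) occupancy was 0.0764 in replicate 1 and 0.0499 in replicate 2, with a minimum of 0.00300. The length stood at the percentile 66.4 of the 8932 nuclear depleted intervals, whose median was 145 bp. Between this interval and the gene, a position at 275563 covered the GAL7 start, with 217 and 142 reads and a height of 1.38. On the far side, a position at 275965, 435 bp before the GAL7 start, had 285 and 375 reads. It was taller in replicate 2 (3.54) than in replicate 1 (1.59), and its footprint was 65 bp there against 113 bp in replicate 1. In reads within 73 bp of its centre, replicate 2 was 1.50-fold higher there.

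The first strong nucleosome lay farther inside GAL1 than inside GAL10 and GAL7. In GAL10 it was called at 278229, 121 bp inside the start, with 945 and 715 reads and a height of 6.03 (percentile 96.3). That height was 2.65 with each base and strand counted once and 8.15 with a smoothing SD of 10 bp, the lowest and highest of the alternatives tried. The occupancy of its first 150 coding bases was 2.72 in replicate 1 and 2.42 in replicate 2, and that of the 150 bases before the start was 0.404 and 0.330. In GAL7, a position at 275368, 162 bp inside the start, had 640 and 379 reads and a height of 4.21 (percentile 88.4). The distances in GAL10 and GAL7 differ by less than the 50 bp by which each start is uncertain, so their order is not settled. GAL7 had 1.13 and 0.773 over its first 150 coding bases. GAL1 lacked a tall nucleosome at this place. A weak position at 279044, 24 bp inside its start, had 160 and 106 reads and a height of 0.852 (percentile 18.3). The first 150 coding bases of GAL1 had 0.725 and 0.519, and the 150 bases before its start had 0.272 and 0.226, the lowest of the 3 genes in replicate 1 and in replicate 2. That order held for this stretch only. From 300 to 151 bp before the start, GAL7 was the lowest (0.136 and 0.0990), and GAL1 had 0.698 and 0.856. The tall positions of GAL1 came later, at 279461 (441 bp inside, height 3.57) and at 279636 (616 bp inside, height 6.01, percentile 96.2).

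**Figure D3:**
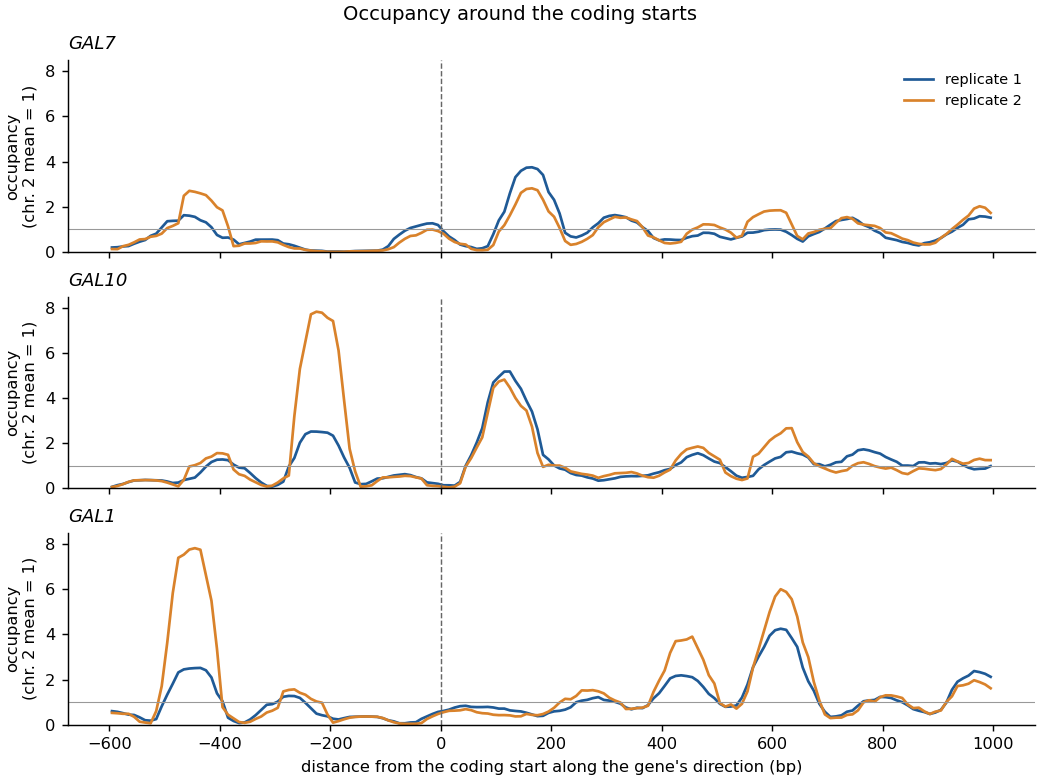
Relative occupancy (chromosome 2 mean = 1) against the distance in bp from the coding start along each gene's own direction, for GAL7, GAL10 and GAL1, with replicate 1 in blue and replicate 2 in orange. GAL10 peaks 121 bp inside its start and GAL7 162 bp inside, while the tall positions of GAL1 lie at 441 and 616 bp; the tall peak before GAL10 and before GAL1 is the same position seen from either side.

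Within the coding parts, 4 positions were called in GAL7, 10 in GAL10 and 9 in GAL1. Heights ran from 1.78 to 4.21 in GAL7, from 1.21 to 6.03 in GAL10 and from 0.839 to 6.01 in GAL1. Above the nuclear median of 1.87 were 2 of the 4, 7 of the 10 and 4 of the 9, counts too small to set the genes apart. The most blurred was at 274541, 111 bp from the GAL7 end, with an SD of its read centres of 40.1 bp in replicate 1 and 41.5 bp in replicate 2 (percentiles 96.8 and 98.4).

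Among the coding parts, GAL10 alone held a depleted interval of at least 80 bp. A shorter run of 42 bp below 0.25 lay in GAL7 from 275440 to 275481, from 49 to 90 bp inside its start (0.192 in replicate 1 and 0.0981 in replicate 2), and would count with a minimum of 40 bp. The interval of GAL10 ran from 276561 to 276694 (134 bp), from 311 to 444 bp upstream of the GAL10 end as the gene is read. Occupancy there was 0.101 in replicate 1 and 0.0984 in replicate 2, with 25 and 16 read 5′ ends and a minimum of 0.0256. Positions at 276476 and 276785, with heights of 1.65 and 2.16, stood on either side, 309 bp apart. The interval had 86 bp with reads widened to 147 bp, 86 bp with each base and strand counted once and 83 bp with a limit of 0.1. It was found in either library alone, with 133 bp in replicate 1 and 127 bp in replicate 2. Its length was at the percentile 43.8 of nuclear depleted intervals, so it was not unusually long.

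The flanks held the other 5 of the 7 depleted intervals of the window. The longest, of 309 bp from 280910 to 281218, lay between GAL1 and FUR4, from 300 to 608 bp beyond the GAL1 end, with an occupancy of 0.0427 and 0.0247 (percentile 89.1). A narrower interval of 83 bp began at 281319. On the side of KAP104, 3 intervals of 150, 93 and 243 bp began at 273730, 273984 and 274179, and the last of these ended 9 bp beyond the GAL7 end. Together the 7 intervals covered 13.3% of the window, against 16.9% of all nuclear bases, so the share in the window was below that background. All bases up to the last read of each chromosome entered the 16.9%, those without any read included.

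Distances between neighbouring positions were at most 200 bp over parts of the genes only. Each call barred further calls within an exclusion zone of 147 bp, so the method itself set the shortest distance. With a zone of 120 bp, the median distance in coding parts was 166 bp. Short distances between calls thus do not by themselves show regular spacing. The 20 distances between neighbouring positions within the same coding part had a median of 172.5 bp (from 149 to 395 bp), and 14 of them were at most 200 bp. Of all nuclear distances, 45.0% were at most 200 bp, and their median was 211 bp. That set also spans promoters, depleted intervals and stretches without reads, with distances up to 16004 bp. The sets are thus unlike, and coding parts of other genes were not measured. Called from a single library, positions had a median spacing of 170.5 bp (replicate 1) or 188 bp (replicate 2), and 13 of 20 and 10 of 19 distances were at most 200 bp. With the reads of both libraries, GAL1 had 7 of 8 distances at most 189 bp and the remaining distance, after its weak first position, of 255 bp. In GAL10, 6 of 9 distances were at most 186 bp, and the others were 290, 309 and 346 bp. In GAL7, 1 of 3 distances was under 200 bp, at 160 bp. Called from replicate 1 alone, GAL1 had 5 of 7 distances at most 200 bp and GAL10 had 6 of 9. From replicate 2 alone these were 4 of 7 and 4 of 8, so the genes were close to each other in either library.

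Phasing was measured as the correlation of the smoothed read centres with themselves at a lag of 130 to 220 bp. For GAL1 the maximum in replicate 1 was r = 0.262, at a lag of 172 bp, and replicate 2 gave r = 0.419 at 176 bp. In GAL7 the values were lower, with r = 0.183 at 180 bp and r = 0.129 at 174 bp. In GAL10 the best lag was 164 bp in both libraries, but r was -0.0593 in replicate 1 and 0.101 in replicate 2. Over nuclear windows of the same length, the median r was 0.187 for GAL1, 0.188 for GAL7 and 0.185 for GAL10, and the reads of both libraries together stood at the percentiles 79.4, 45.9 and 19.3. Phasing was thus stronger than the nuclear median in GAL1 and weaker in GAL10. These coefficients run over neighbouring bases, which are not independent, and are given as a description.

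**Figure D4:**
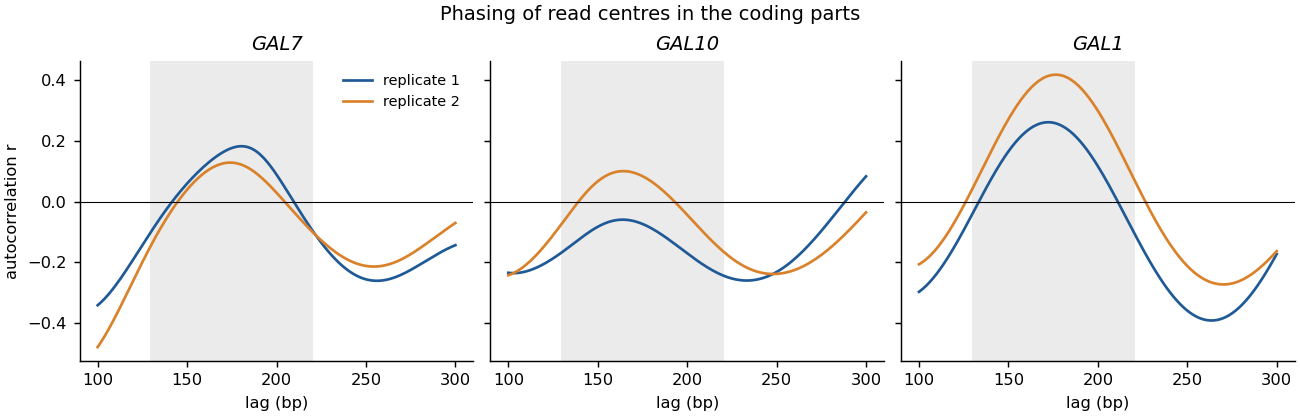
Autocorrelation of smoothed read centres (r) against the lag in bp within the coding parts of GAL7, GAL10 and GAL1, for replicate 1 (blue) and replicate 2 (orange); the grey band is the range of lags searched, from 130 to 220 bp. GAL1 has the highest maximum in both libraries (0.262 and 0.419), and the curve of GAL10 in replicate 1 stays below 0 there.

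The positions recurred between the libraries about as often as elsewhere. Called alone, each library had 40 positions in the window. Of those in replicate 2, 30 of 40 lay within 20 bp of a call in replicate 1 (exact binomial 95% interval of the share, 58.8% to 87.3%), against 80.7% of all nuclear positions of replicate 2. In GAL1 this held for 7 of 8 positions, in GAL10 for 7 of 9 and in GAL7 for 3 of 5. In the promoters it held for 1 of 3 positions before GAL7 and for 1 of 2 between GAL10 and GAL1. Of the 41 positions called from both libraries, 27 had a call within 5 bp in each library. The same reads enter both kinds of call, so such nearness is partly built in. The share over all nuclear positions at 5 bp was not computed, so this count is a description only.

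RPM could be compared at 40 of the 41 positions, since the position at 281094 had only 2 and 1 reads. At 3 of them replicate 2 was more than 1.5-fold higher, which compares with 5.76% of nuclear positions. These were the narrow promoter position (2.79-fold), a position at 274936 in GAL7 (1.75-fold, 181 and 278 reads) and the position at 279461 in GAL1 (1.56-fold, 425 and 583 reads). Replicate 1 was more than 1.5-fold higher at 5 of the 40, against 10.4% of nuclear positions. Of these, a position at 277578 in GAL10 had 341 and 192 reads and a position at 280494 near the GAL1 end had 510 and 264 reads, and the other 3 lay in the flanks. The count of 8 positions past 1.5-fold in either direction fell to 2 with each base and strand counted once. The strand distance over the whole genome was shorter in replicate 2 (84 bp against 93 bp). It stands in for fragment length, which reads from 1 end do not measure. The part of this in the differences was not tested.

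**Figure D5:**
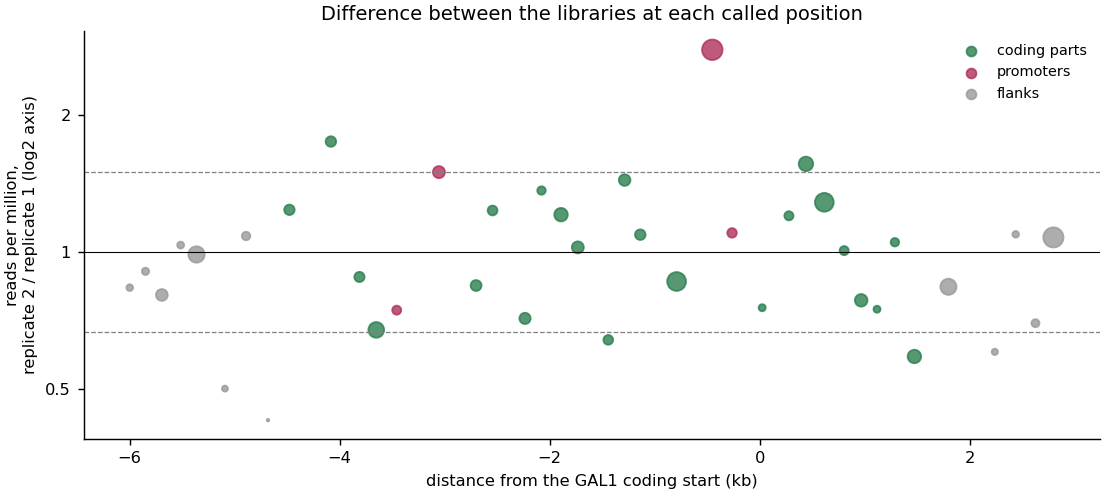
RPM within 73 bp of each position, replicate 2 over replicate 1 on a log2 axis, against the distance from the GAL1 coding start in kb, for the 40 positions that could be compared. Point area grows with height, green points lie in coding parts, red points in promoters and grey points in the flanks, and dashed lines mark 1.5-fold; the highest point, at 2.79-fold, is the narrow position of the GAL10-GAL1 promoter.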

How the data were processed

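DNA was sequenced with 36 cycles of single reads. The authors deposited 1 line per aligned read, each lengthened by them to 150 bp along its strand, with no count or score; the aligner and the handling of copies are not given in the sources used here. Positions are counted from 1. Read centres were set 47 bp (replicate 1) or 42 bp (replicate 2) downstream of the 5′ end, near the middle of the strand distance. Centres from plus and minus reads were summed and a Gaussian of SD 20 bp was applied. Maxima became positions in order of height, each barring further calls within 147 bp, whatever their height. Footprints and fullest bases use 5′ ends within 110 bp of a centre, and footprints need 20 reads per strand. Reads at a position are those with centres within 73 bp, RPM is reads per 1000000 nuclear reads of that library, and a fold needs 4 reads per library. Poisson and binomial intervals cover counting error only, since amplified reads are not independent molecules. No test was run, since there is a single condition.

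The named genes are the 3 members and their neighbours. The gene table at hand is of another assembly (R64), so it served for names and order only, and other galactose genes and genes of like pattern were not analysed here. The members, the window and the settings were chosen with earlier results of these data known. The calling was tried on simulated data with sharper and more evenly spaced positions than the real ones. Nuclear positions had a median SD of read centres of 29.8 bp in replicate 1 and 28.3 bp in replicate 2. The accuracy of the calls on the real data was thus not measured. Alternatives changed the move (73 bp), smoothing, exclusion zone, minimum height, reads per base, footprint, depletion limit, minimum length, reference, gene intervals and libraries. Python 3.11.15, numpy 2.4.6, scipy 1.17.1, numba 0.67.0 and matplotlib 3.10.9 were used.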

Additional observations from a re-analysis of the deposited data

How the results depend on the processing

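The number of positions in the window stayed between 38 and 47 in each alternative tried. Depleted intervals numbered 7, but 11 with a limit of 0.5 and 12 with a minimum length of 40 bp, and from 5 to 8 in either library alone. The bases of the GAL10-GAL1 promoter below the limit numbered 191, but 60 with a limit of 0.1, 376 with a limit of 0.5, 109 with reads of 147 bp and 71 with each base and strand counted once. They ran from 176 to 213 in either library alone, and were 208 and 162 with the gene intervals moved by 50 bp to lower and higher positions. The occupancy of that promoter was 1.03 and fell to 0.453 without the bases within 73 bp of its tallest position, an alternative added after seeing the data; it was 0.612 with each base and strand counted once, 0.769 with at most 20 reads per base, 1.45 against the nuclear median, and 0.715 and 1.35 in either library alone. The median spacing in coding parts, 172.5 bp, was 190.5 bp with a smoothing SD of 10 bp and from 170.5 to 188 bp in either library alone. The share of replicate 1 positions with a call of replicate 2 near them stayed between 67.5% and 89.7%. Positions past the fold limit numbered 8, but 2 with each base and strand counted once and 2 with a limit of 2-fold. A limit of 1 read per base levels peaks by its construction, and the cause of the other changes was not tested. No paired analysis of groups was made, since both libraries belong to a single group and no result came from a test. Depth limits the depleted intervals, where few reads lay.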
